A study of Mus musculus with 6 samples.

Results

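Thymic stromal lymphopoietin and its receptor were followed through 3 of the 32285 genes in the count tables, chosen by name: Tslp, which encodes the cytokine, and Crlf2 and Il7r, which encode the receptor chains. TSLP is an alarm cytokine released mainly by epithelial cells, and in skin the keratinocyte is its best known source. Its receptor pairs the TSLP-specific chain made from Crlf2 with the interleukin-7 receptor alpha chain made from Il7r, and it signals through Jak1, Jak2 and Stat5. The alpha chain also pairs with the common gamma chain, made from Il2rg, to form the receptor for interleukin-7, so a cell with Il7r alone need not respond to TSLP. Dendritic cells, T cells, innate lymphoid cells and basophils are known to respond to TSLP.

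The cells came from Balb/c mouse skin, digested with enzymes, and each library lists how many molecules of a transcript, told apart by molecular tags (UMIs), a droplet barcode held (10x Genomics). The groups were 3 libraries named EC-SAL with the treatment label control and 3 named EC-OVA with the label OVA-sensitized (n = 3 per group throughout). Per the labels, epicutaneous sensitization lasted 10 days in all groups and skin was taken 2 days after it, and the tissue of the controls carries the same description as that of the OVA-sensitized mice. The labels do not say whether libraries came from separate or pooled mice, so a p-value here speaks of the spread among 3 libraries a group, and that spread may be technical. The labelled cell type was CD4 in every library, but lymphoid cells made up 416 of the 24432 cells kept, and the clusters also held keratinocytes, follicle cells, fibroblasts, endothelium and myeloid cells.

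Cells kept per library ranged from 3405 to 4994, with 21743490 to 28049562 UMIs, and the median per cell was 4528 to 5193 UMIs. Of the barcodes with at least 300 genes, 22.1 to 23.1% in EC-SAL and 14.1 to 15.2% in EC-OVA were left out for a high mitochondrial share. Pairs of libraries shared 12 to 34 barcodes. The mix of cells differed: keratinocytes numbered 4194 in EC-SAL and 1603 in EC-OVA, and leukocytes numbered 915 and 1620. Classes were named from marker genes, and the 3 genes took no part in the clustering, so each name stands for a marker profile ("basal-like", "macrophage-like") rather than a proven cell type. Levels are given as UMIs per 1000000 UMIs of the same class and library (CPM).

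Crlf2 (ENSMUSG00000033467) lies on the minus strand at chr5:109554709-109558993 in GRCm38, with up to 8 exons in GENCODE M21. Il7r (ENSMUSG00000003882) lies on the minus strand at chr15:9505788-9530176, also with up to 8 exons. The 250 bases upstream of the RefSeq starts of the receptor genes (GRCm38.p6, minus strand, 5' to 3') are printed because the chains were detected so differently across skin: Crlf2 in nearly every class, Il7r almost only in leukocytes. The Crlf2 stretch starts next to the gene as GENCODE gives it, whereas the Il7r stretch lies inside the GENCODE gene, whose span begins further upstream than the RefSeq start. CG pairs are in capitals.
Crlf2, chr5:109558994-109559243: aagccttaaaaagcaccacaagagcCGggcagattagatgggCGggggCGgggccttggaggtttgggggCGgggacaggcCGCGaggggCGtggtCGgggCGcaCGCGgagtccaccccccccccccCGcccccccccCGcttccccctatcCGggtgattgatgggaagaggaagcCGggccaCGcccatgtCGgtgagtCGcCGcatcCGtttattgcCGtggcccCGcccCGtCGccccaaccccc
Il7r, chr15:9529877-9530126: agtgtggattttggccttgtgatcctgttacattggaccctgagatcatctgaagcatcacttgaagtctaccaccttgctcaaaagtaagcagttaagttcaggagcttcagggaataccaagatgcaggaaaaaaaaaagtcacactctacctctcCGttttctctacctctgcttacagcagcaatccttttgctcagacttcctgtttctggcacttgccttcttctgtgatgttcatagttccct
The Crlf2 stretch held 24 CG pairs, at 0.75 of the number its base content would give, and 71.6% of its bases were G or C. The Il7r stretch held 1 CG pair, at 0.08 of that number, with 44.0% G or C. Over 32851 mouse stretches of the same kind the median was 6.0 CG pairs, 88.0% held fewer than Crlf2 and 7.9% fewer than Il7r. The motif GGGCGG occurred 5 times in the Crlf2 stretch on either strand, where it can overlap the CG pairs, and did not occur in that of Il7r, and 32.7% of the stretches held it. These are descriptions of sequence only.

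Keratinocytes held most of the Tslp in this skin. The gene (ENSMUSG00000024379) lies on the plus strand at chr18:32815383-32819797 in GRCm38, with up to 5 exons, and a non-coding gene that overlaps it on the other strand is not in the count tables. Of 3829 Tslp UMIs in 1792 cells, 2993 (78.2%) were in keratinocytes, where 1144 of 5797 cells (19.7%) had at least 1. The share of all Tslp UMIs held by keratinocytes was 86.3% in EC-SAL and 59.5% in EC-OVA. Cycling keratinocytes had a pooled level of 90.7 CPM from 508 UMIs in 463 cells. Basal keratinocytes, which line the basement membrane, had 84.9 CPM from 1252 UMIs in 2152 cells. Suprabasal keratinocytes, which differentiate toward the skin surface, had 51.3 CPM from 1183 UMIs in 2387 cells. Upper follicle keratinocytes, which line the follicle opening, had only 7.61 CPM from 50 UMIs in 795 cells. The rest of the pilosebaceous epithelium was near 0, with 7 UMIs in bulge and outer root sheath cells (1.64 CPM), 3 in hair matrix and inner root sheath cells (0.51 CPM) and 4 in sebocytes (0.42 CPM).

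Outside the epidermis, Tslp was found in mural and myeloid cells. Pericytes and smooth muscle cells had 64.4 CPM from 186 UMIs, and macrophages 63.4 CPM from 95 UMIs. Lymphatic endothelium had 17.0 CPM, vascular endothelium 11.4 CPM and fibroblasts 9.67 CPM, but fibroblasts were so many that they held 301 UMIs, 3.93% of the Tslp UMIs in EC-SAL and 16.9% in EC-OVA. Lymphoid cells had none: 0 of 152 cells in EC-SAL allows a share with a UMI of up to 1.97% (3 counts), and 0 of 264 in EC-OVA up to 1.14%, at median depths of 2054.5 and 1913.5 UMIs. Langerhans cells, neutrophils and basophils also had none. In EC-OVA, 3 counts would allow up to 31.7 CPM in Langerhans cells, 70.2 CPM in neutrophils and 42.6 CPM in basophils. In EC-SAL the limit was 11.5 CPM in Langerhans cells, and neutrophils and basophils numbered only 3 cells each. For neutrophils and basophils the absence is therefore uninformative.

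Krt14, the basal keratin, had UMIs in 39.7% of pericytes and 26.8% of macrophages, which gives a scale for keratinocyte RNA counted in these classes. If Tslp had come with Krt14 at the keratinocyte ratio, pericytes would have held 2.28 Tslp UMIs, macrophages 1.55 and fibroblasts 18.8. They held 186, 95 and 301. Upper follicle cells are keratinocytes themselves, with Krt14 UMIs in 92.8% of cells, so for them the ratio does not measure carried-over RNA. It gave 276 Tslp UMIs there, and 50 were observed. Suprabasal keratinocytes held 1183 Tslp UMIs against 203 at that ratio, so RNA carried over from them would bring more Tslp for each Krt14 UMI than this scale allows. Dermal gamma-delta T cells had Krt14 UMIs in 47.2% of cells and no Tslp. Their 126 Krt14 UMIs would have brought only 0.56 Tslp UMIs at the keratinocyte ratio, so this 0 is uninformative.

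**Figure D1:**
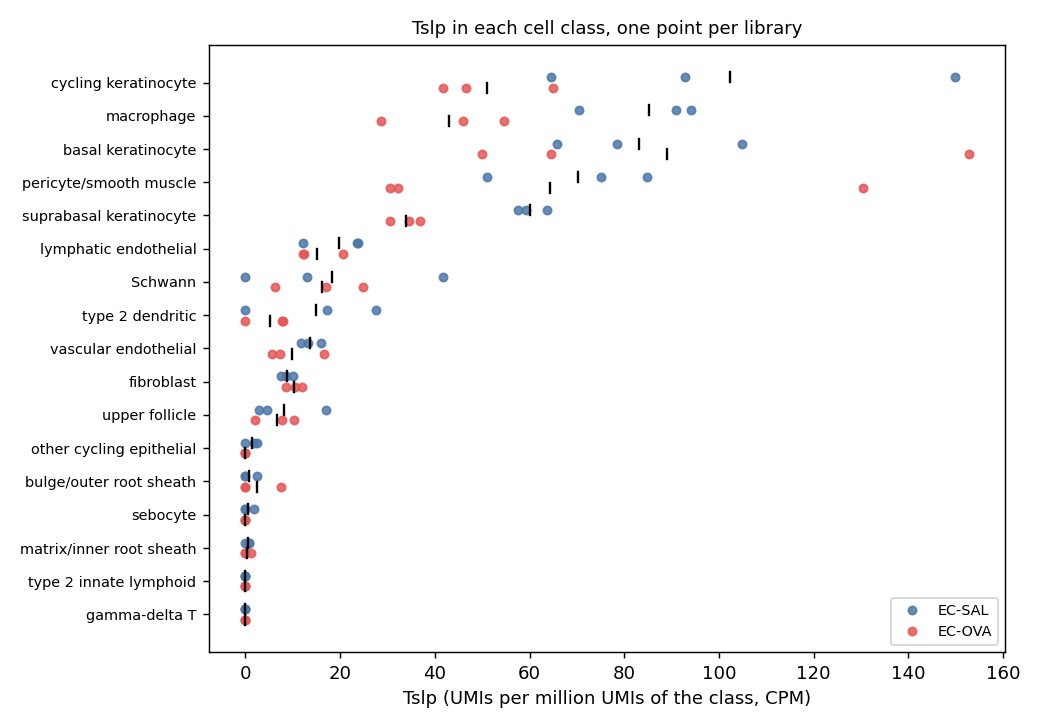
Tslp in CPM (horizontal axis) for the 17 classes that every library filled with 10 or more cells, ordered by the EC-SAL mean. Each point is 1 library, blue for EC-SAL and red for EC-OVA, and black ticks are group means; the first 5 classes stand above the rest, and EC-OVA libraries lie below EC-SAL in suprabasal keratinocytes and macrophages.

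In the control skin the order of mean levels was cycling keratinocytes at 102 ± 43.4 CPM (SD), macrophages at 85.2 ± 12.8, basal keratinocytes at 83.1 (65.7 to 105 over the libraries), pericytes at 70.3 ± 17.4 and suprabasal keratinocytes at 60.2 ± 3.11. Neighbours among these 5 had overlapping ranges over the libraries. In EC-OVA the order differed, with basal keratinocytes at 89.1 CPM, pericytes at 64.4, cycling keratinocytes at 51.0, macrophages at 43.0 and suprabasal keratinocytes at 34.0 CPM. The next class, lymphatic endothelium at 19.8 ± 6.69 CPM, lay below every suprabasal value. Upper follicle keratinocytes stood at 8.20 ± 7.77 CPM, within the range of fibroblasts at 8.74 ± 1.22.

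Within a state, Tslp varied with the cluster. Among basal keratinocytes, a cluster of 836 cells led by Mmp3, Mmp13 and Il1r2 (matrix proteases and the interleukin-1 decoy receptor) had 115 CPM, whereas a second of 908 cells led by Il1r2 and Fcgbp had 63.3 CPM. Among suprabasal keratinocytes, the cluster of 597 cells had 92.4 CPM and one of 770 cells 62.7 CPM. The cluster of 874 cells led by Cnfn, a gene of late cornification, had 18.6 CPM. These clusters were made from the same cells, so their levels are given without a test.

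A few cells held much of the cytokine transcript. Of the 1144 keratinocytes with Tslp, 708 had a single UMI, while 46 cells with at least 10 UMIs held 36.4% of the keratinocyte total. The highest cell, a cycling keratinocyte of EC-SAL-1, had 76 UMIs. In basal keratinocytes of EC-OVA-1, 1 cell had 67 of 198 UMIs (33.8%). Among pericytes of EC-OVA-3, 2 cells with 30 and 23 UMIs held 53 of 69 (76.8%). Macrophages were the opposite: no cell had more than 4, and 75 of the 84 with Tslp had 1.

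**Figure D2:**
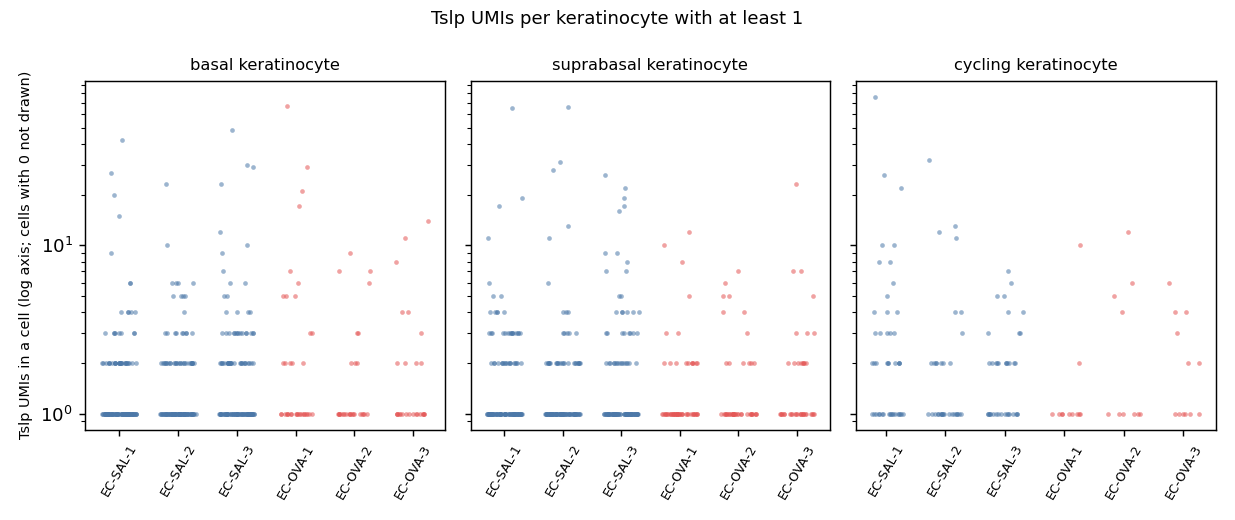
Tslp UMIs in each keratinocyte with at least 1 (vertical log axis; cells with 0 are not drawn), by library (horizontal axis) for basal, suprabasal and cycling keratinocytes. Most cells have 1 UMI; the highest suprabasal cells of the EC-SAL libraries have 65, 66 and 26 UMIs and those of EC-OVA 12, 7 and 23.

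In suprabasal keratinocytes Tslp fell after OVA sensitization. The level was 57.7, 63.6 and 59.2 CPM in EC-SAL libraries 1 to 3 and 36.9, 30.6 and 34.5 CPM in EC-OVA libraries 1 to 3. Every OVA-sensitized library was below every control, a separation that 18.3% of the 9102 genes tested in this state also showed. Means were 60.2 ± 3.11 and 34.0 ± 3.21 CPM (SD), a log2 fold change of -0.77 ± 0.10 (SE, edgeR quasi-likelihood test, adjusted p = 0.000248 by Benjamini-Hochberg over the genes tested). Of those genes 1.77% passed the threshold of 0.05, and 0.352% passed it as lower. The cluster with the highest level had 109 ± 42.7 CPM in EC-SAL and 45.9 ± 8.76 CPM in EC-OVA. It held 175, 151 and 127 of the 615, 530 and 507 suprabasal cells in EC-SAL, and 60, 40 and 44 of the 255, 249 and 231 in EC-OVA. The cluster of 770 cells had 67.4 ± 26.8 and 53.5 ± 15.1 CPM, the late, Cnfn-led cluster 19.3 ± 5.79 and 17.1 ± 2.75 CPM, and a small one of 146 cells 43.1 ± 21.5 and 49.2 ± 9.92 CPM. No cluster was tested on its own, and the part of the cluster mix in the state's change was not tested. The share of suprabasal cells with a Tslp UMI was 19.8, 22.3 and 22.7% in EC-SAL and 21.2, 17.3 and 16.9% in EC-OVA, so the shares overlapped (exact permutation p = 0.2; p = 0.3 and 0.2 when cells were thinned to 1000 and 2000 UMIs).

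Basal keratinocytes gave no such change. Their Tslp was 78.5, 65.7 and 105 CPM in EC-SAL and 153, 50.0 and 64.6 CPM in EC-OVA. The groups overlapped, since EC-OVA-1, the library with the cell of 67 UMIs, was the highest of all and EC-OVA-2 the lowest. The means of 83.1 and 89.1 CPM gave a log2 fold change of 0.15 ± 0.48 (edgeR, adjusted p = 0.97), where 0.574% of 8889 genes passed. Without the cell with most Tslp in each library the value was -0.12. The test of whether the suprabasal change differed from the basal one gave a log2 difference of -0.88 ± 0.45 (edgeR, adjusted p = 0.92; 0 of 9377 genes passed, percent called 0), so a difference between the states was not shown.

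Cycling keratinocytes had 150, 92.8 and 64.5 CPM in EC-SAL and 41.7, 64.9 and 46.5 CPM in EC-OVA. The groups overlapped only between the lowest control and the highest OVA-sensitized library. The log2 fold change of -1.02 ± 0.43 did not pass (edgeR, adjusted p = 0.79; 0.0586% of genes passed). Upper follicle cells had 24, 6 and 4 UMIs in EC-SAL and 6, 8 and 2 in EC-OVA, and did not pass the filter on low counts for a test in that state. In the fit over the states, their change differed from the basal one by -0.45 ± 1.18 and from the suprabasal one by 0.43 ± 1.24 in log2 units (edgeR, adjusted p = 1.0 and 0.98; 0 of 9377 genes passed in each).

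Over all keratinocytes Tslp was 71.6, 60.5 and 67.5 CPM in EC-SAL and 61.6, 35.6 and 36.1 CPM in EC-OVA. Of the OVA-sensitized libraries only EC-OVA-1 lay within the range of the controls. The log2 fold change was -0.53 ± 0.23 (edgeR, adjusted p = 0.30; 6.23% of 10892 genes passed), and without EC-OVA-1 it was -0.82 with an adjusted p of 0.000119. The states did not keep their shares: basal cells were 38.1 to 41.5% of keratinocytes in EC-SAL and 27.9 to 31.9% in EC-OVA, and suprabasal cells 38.3 to 40.5% and 45.1 to 47.0%. The share of keratinocytes with a Tslp UMI was 20.4, 20.6 and 21.9% in EC-SAL and 18.4, 15.8 and 15.4% in EC-OVA. These groups did not overlap (two-sided exact permutation test, p = 0.1, the smallest that 3 against 3 libraries can give; 0.21 adjusted over 23 comparisons of shares). Thinned to 1000 UMIs per cell, with 145 and 52 shallower cells left out, the mean shares were 4.69 and 3.20%.

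Among the other sources, macrophages had 90.9, 70.5 and 94.2 CPM of Tslp in EC-SAL and 28.6, 46.0 and 54.5 CPM in EC-OVA. The groups did not overlap, as in 23.5% of 3158 genes tested there. Means of 85.2 ± 12.8 and 43.0 ± 13.2 CPM gave a log2 fold change of -0.998 ± 0.31 that did not pass (edgeR, adjusted p = 0.0521; 5.6% of genes passed). It passed with the replicate number as a block (adjusted p = 0.0320), with doublets kept (0.0446), without EC-OVA-3 (0.0437) and with leukocytes clustered at resolution 0.6 (log2 -1.61, adjusted p = 0.000939) or 1.5 (log2 -1.78, adjusted p = 0.000475), all by edgeR. It did not pass without any other library, and DESeq2 gave no adjusted p. Most EC-SAL macrophages were in a cluster led by Pf4, Ccl8 and Folr2 (307 cells, against 151 of EC-OVA), and most EC-OVA macrophages in one led by Pf4, Ms4a7 and Trem2 (311 cells, against 81). Tslp went from 73.8 ± 8.96 to 59.0 ± 16.3 CPM in the first and from 61.4 ± 28.0 to 22.0 ± 11.8 CPM in the second. In the first-level macrophage class, which also holds monocytes, Tslp had a log2 fold change of -1.57 ± 0.30 (edgeR, adjusted p = 0.000726; 9.36% of genes passed), while monocytes, with 1 Tslp UMI in all, went from 3.98 to 27.1% of its cells. Over all leukocytes Tslp fell from 28.7, 32.1 and 36.2 CPM in EC-SAL to 6.20, 11.3 and 11.02 CPM in EC-OVA, a log2 fold change of -1.75 ± 0.28 (edgeR, adjusted p = 0.000465; 9.26% of 7396 genes passed). The mix of leukocytes moved with it, and its part in this value was not tested.

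Pericytes had 51.0, 84.8 and 75.1 CPM in EC-SAL and 32.2, 30.5 and 130 CPM in EC-OVA. The highest value was that of EC-OVA-3, the library with the cells of 30 and 23 UMIs. The log2 fold change was -0.19 ± 0.74 (edgeR, adjusted p = 0.95; 4.08% of genes passed), and without EC-OVA-3 it was -1.17 with an adjusted p of 0.0153. Fibroblasts had 7.54 to 9.99 CPM in EC-SAL and 8.54 to 11.9 CPM in EC-OVA, a log2 fold change of 0.26 ± 0.19 (edgeR, adjusted p = 0.48; 10.6% of genes passed).

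**Figure D3:**
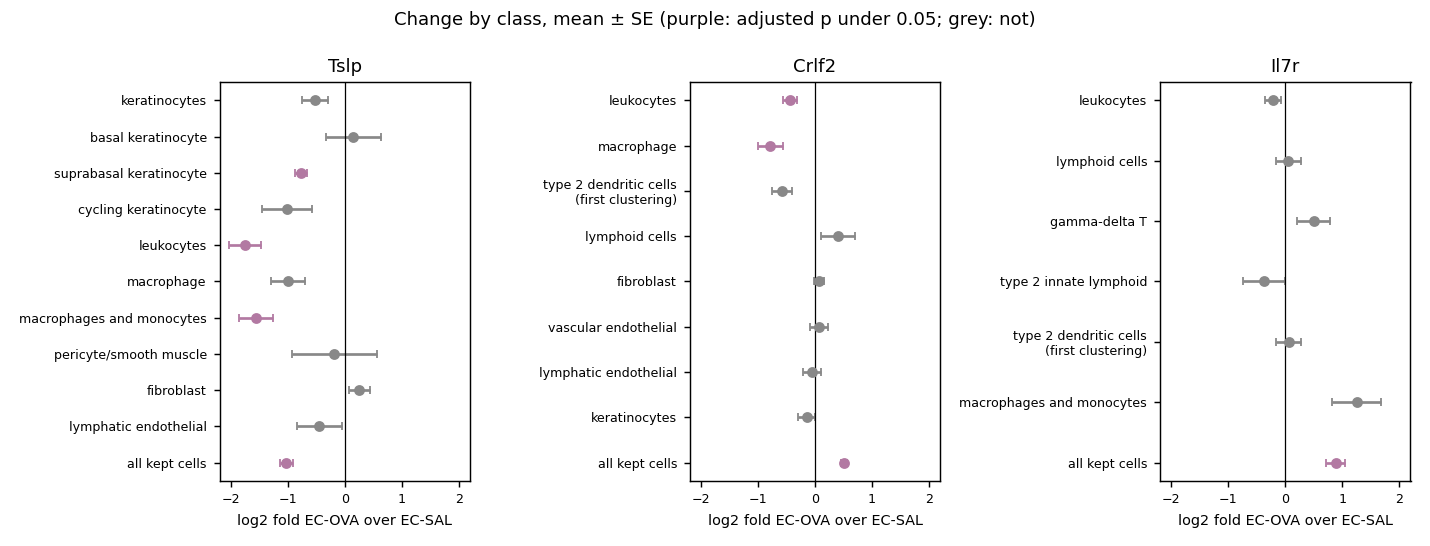
Log2 fold change of EC-OVA over EC-SAL (horizontal axis; points are estimates and bars ± SE) for Tslp, Crlf2 and Il7r in the classes tested. Purple points passed an adjusted p of 0.05 and grey points did not. Of the rows drawn, those that passed were, for Tslp, suprabasal keratinocytes at -0.77, leukocytes at -1.75, macrophages with monocytes at -1.57 and all kept cells at -1.03, for Crlf2, leukocytes at -0.44, macrophages at -0.78 and all kept cells at 0.51, and for Il7r, all kept cells at 0.89.

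The receptor chains had unlike distributions. Crlf2 was widespread, with 6015 UMIs in 4604 cells (18.8% of those kept), of which leukocytes held 1068 (17.8%) and fibroblasts 1812 (30.1%). Its pooled level was 159 CPM in leukocytes and 58.2 CPM in fibroblasts. Il7r lay mostly in leukocytes, which held 764 of its 783 UMIs (97.6%), and reached 114 CPM there. Keratinocytes had 7.92 CPM of Crlf2 and 0.12 CPM of Il7r, the latter from 6 UMIs in 5 cells. That background share was 0.0863% of keratinocytes, at median depths of 7567 and 8343 UMIs in the groups against 1916 and 1792 UMIs in leukocytes.

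Among leukocytes, Crlf2 was highest in small myeloid classes. Neutrophils had 426 CPM, but from 19 UMIs in 65 cells. Langerhans cells, the dendritic cells of the epidermis, had 255 CPM with a UMI in 65.2% of 69 cells, and a myeloid cluster of 172 cells led by Cd209e, Timd4 and Cd7 had 254 CPM. Within the groups the pooled levels of these were 283 and 316 CPM in EC-SAL and 180 and 230 CPM in EC-OVA, with 19 Langerhans cells in EC-OVA. Type 2 dendritic cells had 205 CPM, type 1 dendritic cells 154, monocytes 143, CD4 T cells 135, basophils 135 and macrophages 125.5 CPM. Basophils rested on 10 UMIs, of which 1 was in EC-SAL, and monocytes on 13 UMIs in EC-SAL and 70 in EC-OVA. CD4 T cells had 87.5 CPM from 5 UMIs in EC-SAL and 145 CPM from 39 UMIs in EC-OVA, with no test. Type 2 innate lymphoid cells had 101.5 CPM and dermal gamma-delta T cells 84.6 CPM. Lymphatic and vascular endothelium were in the same range, at 113 and 103 CPM.

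Il7r was highest in lymphoid cells, which held 306 UMIs (39.1%) at 318 CPM, with a UMI in 45.4% of cells. Type 2 innate lymphoid cells had 450 CPM, dermal gamma-delta T cells 310 CPM and CD4 T cells 273 CPM. The CD4 T cells had 193 CPM from 11 UMIs in EC-SAL and 290 CPM from 78 UMIs in EC-OVA, with no test. Langerhans cells were at 252 CPM with a UMI in 69.6% of cells, above type 2 dendritic cells at 115 CPM and migratory dendritic cells at 105 CPM. The Cd209e-led cluster had 129 CPM from 104 UMIs, 13.3% of all Il7r UMIs. Basophils had 202 CPM, but from 15 UMIs in 49 cells, all of these UMIs in EC-OVA. Type 1 dendritic cells had 5.66 CPM, so they carried Crlf2 with almost no Il7r, as did endothelium, where Il7r was at 0. Of the genes that define these classes, Cd4 was detected in 38.2% of the CD4 T cells and Trdc in 59.7% of the gamma-delta T cells. Gata3 was detected in 70.8% of the innate lymphoid cells, which had no Cd4. Il1rl1, also used as a marker of innate lymphoid cells, was lower there, at 43.5 CPM from 9 UMIs. CD4 T cells had 104 CPM of it from 34 UMIs, so these genes do not settle the innate lymphoid name.

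**Figure D4:**
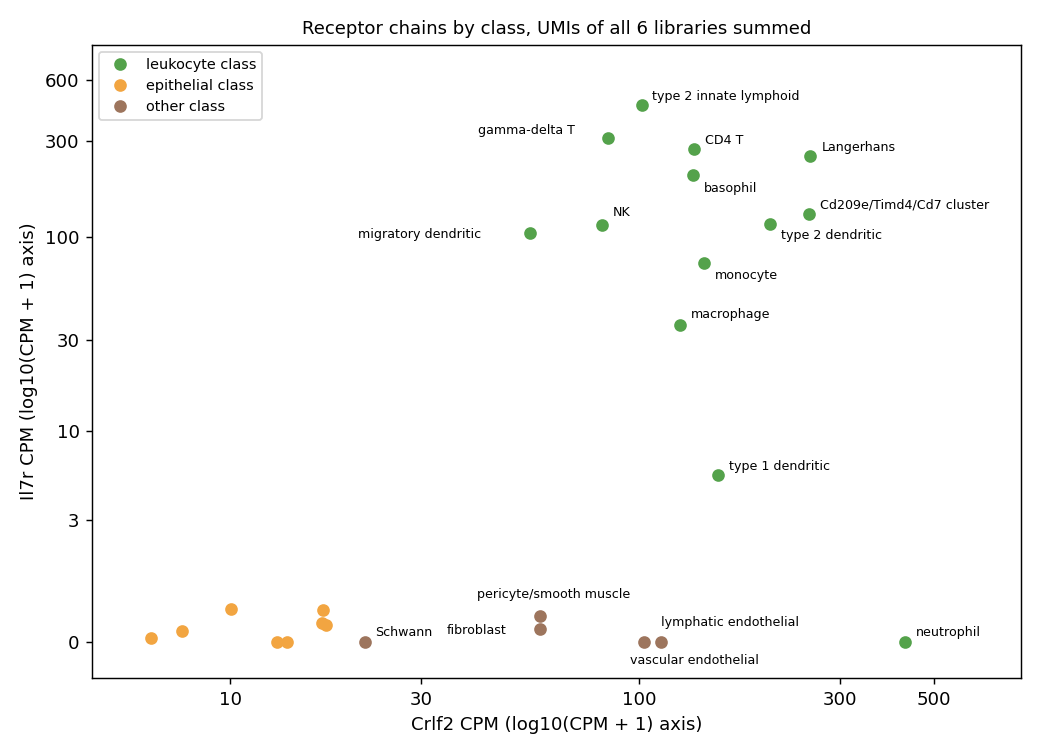
Pooled Crlf2 (horizontal) and Il7r (vertical) level of each class in CPM, both on log10(CPM + 1) axes, with the UMIs of all 6 libraries summed. Most leukocyte classes (green) hold both chains, whereas type 1 dendritic cells, endothelium and fibroblasts hold Crlf2 with Il7r at 5.66 CPM or less. Neutrophils had 0 Il7r UMIs, but they were so shallow that 3 counts would allow up to 70.2 CPM in EC-OVA.

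Cells with UMIs of both chains were 186, of which 184 were leukocytes. The Cd209e-led cluster gave 41, type 2 dendritic cells 33, CD4 T cells 15, monocytes 11, gamma-delta T cells 10, and macrophages and type 2 innate lymphoid cells 9 each. Langerhans cells gave 37. That was 53.6% of all Langerhans cells, against 12.8% of type 2 dendritic cells and 10.4% of CD4 T cells. Median depth was 5190 UMIs in Langerhans cells, 2775 in type 2 dendritic cells and 1790 in CD4 T cells. The product of the shares of each chain would give 31.3, 26.7 and 13.5 cells with both, where 37, 33 and 15 were counted. Thinned to 1000 UMIs, 21.6% of Langerhans cells and 22.3% of type 2 dendritic cells of EC-SAL had Crlf2, and 14.8 and 12.3% had Il7r. At 2000 UMIs the Il7r shares of these classes were 32.7 and 20.4% in EC-SAL. In EC-OVA they were 6.67 and 11.8% at 1000 UMIs and 36.9 and 21.5% at 2000 UMIs. Shares with both chains were not computed on thinned cells, so the part of depth in their order was not tested. Langerhans cells made up 35.4% of the 82 such cells in EC-SAL and 7.69% of the 104 in EC-OVA. A missing UMI does not show that a chain is absent at this depth.

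Over all leukocytes Crlf2 was lower after OVA sensitization. It was 165, 208 and 204.5 CPM in EC-SAL and 142.6, 143.3 and 142.5 CPM in EC-OVA. All OVA-sensitized libraries lay together below the controls, and 25.9% of 7396 genes tested also had groups apart. The log2 fold change was -0.44 ± 0.12 (edgeR, adjusted p = 0.0292; 9.26% of genes passed), but DESeq2 gave an adjusted p of 0.183. The call was also lost without EC-SAL-2, EC-SAL-3, EC-OVA-1 or EC-OVA-3, with adjusted p-values of up to 0.147. The leukocyte mix moved too, since monocytes, at 143 CPM of Crlf2, went from 23 to 218 cells, and what this did to the value was not tested.

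Macrophages had 136, 172 and 172 CPM of Crlf2 in EC-SAL and 106, 77.8 and 101 CPM in EC-OVA. The groups did not overlap, as in 23.5% of 3158 genes tested in this class. Means of 160 ± 20.5 and 95.1 ± 15.2 CPM gave a log2 fold change of -0.78 ± 0.22 (edgeR, adjusted p = 0.0360; 5.6% of genes passed). The call was lost with DESeq2 (adjusted p = 0.147), with doublets kept, with stricter cells, with leukocytes clustered more coarsely or finely, and without EC-SAL-2, EC-SAL-3, EC-OVA-2 or EC-OVA-3 (adjusted p of up to 0.158). With monocytes added the log2 fold change was -0.50 ± 0.20 (edgeR, adjusted p = 0.11). The shares of macrophages with a Crlf2 UMI, 17.5, 20.4 and 20.1% against 11.7, 9.47 and 13.9%, did not overlap either (exact permutation p = 0.1). In the cluster led by Pf4, Ccl8 and Folr2, Crlf2 went from 161 ± 34.3 to 107 ± 61.4 CPM. In the cluster led by Pf4, Ms4a7 and Trem2 it went from 188 ± 107 to 74.0 ± 44.3 CPM. The remaining cluster, of 145 cells, had 141 ± 86.9 and 148 ± 36.2 CPM. The part of the cluster mix in the macrophage change was not tested.

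The type 2 dendritic cells of the first clustering were a wider class, in which the Cd209e-led cluster was 25.7% of cells in EC-SAL and 37.0% in EC-OVA. Their Crlf2 was 275, 234 and 238 CPM in EC-SAL and 184, 170 and 177.5 CPM in EC-OVA. The groups did not overlap, as in 21.9% of 3357 genes tested. The log2 fold change of -0.58 ± 0.17 did not pass (edgeR, adjusted p = 0.0765; 3.4% of genes passed). Type 2 dendritic cells of the second clustering had 303, 184 and 285 CPM of Crlf2 in EC-SAL and 147, 182 and 127 CPM in EC-OVA. Their log2 fold change of -0.77 ± 0.27 did not pass either (edgeR, adjusted p = 0.109). Of the 1519 genes tested there, 11 passed as higher and 24 as lower. In lymphoid cells Crlf2 was at 66.2, 101.5 and 103 CPM in EC-SAL and 113, 117 and 111 CPM in EC-OVA. The groups did not overlap, as in 15.2% of 2714 genes tested, but the log2 fold change of 0.41 ± 0.30 did not pass (edgeR, adjusted p = 0.75; 1.25% of genes passed). Langerhans cells, of which 5, 11 and 3 were kept in EC-OVA against 16, 18 and 16 in EC-SAL, were too few for a test and had 198, 282 and 350 CPM in EC-SAL and 286, 123 and 360 CPM in EC-OVA.

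Outside the leukocytes Crlf2 passed in no class tested. The log2 fold change was 0.072 ± 0.082 in fibroblasts, 0.071 ± 0.16 in vascular and -0.055 ± 0.16 in lymphatic endothelium and -0.15 ± 0.15 in keratinocytes, with edgeR adjusted p-values of 0.66 to 0.94. Shares of cells with a UMI were higher in EC-OVA in the first 3 of these, for example 24.8 against 36.0% in vascular endothelium. Median depth was also higher there, 3784.5 against 2846.5 UMIs, and after thinning to 1000 UMIs the vascular shares overlapped (exact permutation p = 0.4). At 2000 UMIs they were 15.4, 15.6 and 16.3% in EC-SAL and 17.3, 22.5 and 17.4% in EC-OVA and did not overlap (exact permutation p = 0.1, the smallest possible).

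No single class tested passed for Il7r. Lymphoid cells had 317.5, 274 and 350 CPM in EC-SAL and 278, 405 and 277 CPM in EC-OVA. The groups overlapped, with means of 314 ± 37.8 and 320 ± 73.7 CPM and a log2 fold change of 0.054 ± 0.22 (edgeR, adjusted p = 0.97). Between the groups, CD4 T cells went from 19.1 to 43.6% of lymphoid cells and gamma-delta T cells from 50.7 to 25.4%. Type 2 innate lymphoid cells had a log2 fold change of -0.38 ± 0.37 and gamma-delta T cells of 0.50 ± 0.30, with edgeR adjusted p-values of 0.99 and 0.94, but 0 of 496 genes (percent called 0) and 1 of 863 (0.116%) passed in these small classes. Type 2 dendritic cells of the first clustering were at 95.5, 124 and 128 CPM in EC-SAL and 151, 116 and 118 CPM in EC-OVA, a log2 fold change of 0.064 ± 0.22 (edgeR, adjusted p = 0.94). In macrophages with monocytes Il7r was 30.4, 19.2 and 21.7 CPM in EC-SAL and 69.1, 79.9 and 24.9 CPM in EC-OVA. The lowest OVA-sensitized library lay among the controls, and the log2 fold change of 1.26 ± 0.43 did not pass (edgeR, adjusted p = 0.0801). With 1 library left out, the 4 settings with a value ran from 1.13 to 1.63, with edgeR adjusted p-values from 0.00256 to 0.304. Monocytes, at 74.1 CPM of Il7r against 36.1 in macrophages, went from 3.98 to 27.1% of this class. The part of this mix in the value was not tested.

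Summed over all kept cells, all 3 genes passed, where 45.8% of 14924 genes did. Tslp fell by 1.03 ± 0.11 in log2 units, from 35.4, 31.4 and 35.2 CPM in EC-SAL to 21.0, 14.7 and 16.2 CPM in EC-OVA (edgeR, adjusted p = 0.000302). Crlf2 rose by 0.51 ± 0.048, from 34.5, 33.8 and 33.1 CPM to 51.6, 49.2 and 49.5 CPM (edgeR, adjusted p = 4.86e-06). Il7r rose by 0.89 ± 0.17, from 3.46, 4.01 and 3.88 CPM to 7.13, 8.79 and 5.79 CPM (edgeR, adjusted p = 0.00134). The groups did not overlap for any of them, as for 51.3% of genes.

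These sums join the change within cells to the change in the mix of cells. With the class shares of the controls held, the log2 ratio of the group means moved from -0.97 to -0.36 for Tslp, from 0.57 to -0.032 for Crlf2 and from 0.94 to 0.13 for Il7r. For Tslp the libraries then stood at 35.1, 31.8 and 34.7 CPM in EC-SAL and 35.3, 21.1 and 23.0 CPM in EC-OVA, so EC-OVA-1 overlapped the controls. Fewer cells of a class in the suspension and fewer in the skin cannot be told apart here.

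**Figure D5:**
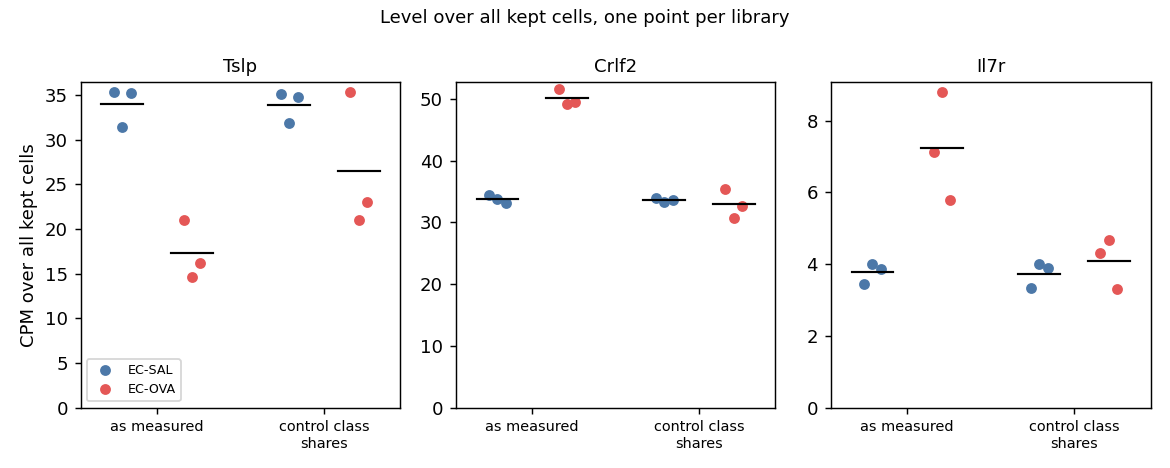
Tslp, Crlf2 and Il7r in CPM over all kept cells (vertical axis), as measured and with the class shares of the controls held fixed. Points are libraries (blue EC-SAL, red EC-OVA) and lines are means; the groups stand apart as measured and overlap, for all 3 genes, at control class shares.

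Most genes known to regulate Tslp in keratinocytes did not pass the test. In keratinocytes 28 of 32 listed genes were tested, 5 were higher (as were 4.15% of all genes) and 0 lower after OVA sensitization, with a median log2 fold change of 0.14 against 0.003 over all genes. St14, the protease matriptase, rose from 25.5 ± 2.85 to 32.9 ± 3.17 CPM (log2 0.42 ± 0.10, edgeR adjusted p = 0.0184). Notch2, a receptor of the Notch pathway, rose by 0.37 ± 0.091 (adjusted p = 0.0189), and Il1b, the cytokine interleukin-1 beta, by 0.79 ± 0.21 (adjusted p = 0.0346). DESeq2 called 2 of the 28, and 13 of them had an unadjusted edgeR p under 0.05. In the suprabasal state, where Tslp fell, 1 of 26 was called higher, against 1.42% of all genes: Spink5, an inhibitor of the kallikrein proteases, went from 188 ± 18.1 to 233 ± 21.2 CPM (log2 0.37 ± 0.083, edgeR adjusted p = 0.0317), and DESeq2 called 0. Of these 26, 6 had an unadjusted edgeR p under 0.05. In the basal state edgeR and DESeq2 called 0 of 25, of which 2 had an unadjusted edgeR p under 0.05, Rela at -0.19 ± 0.077 and Myd88 at -0.26 ± 0.12 on the log2 scale.

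Il33, another alarm cytokine, had 73.0% of its UMIs in keratinocytes, where Tslp had 78.2%. Its level was 275 CPM in Schwann cells, 131 in basal keratinocytes, 103 in pericytes and 97.3 CPM in suprabasal keratinocytes. In keratinocytes it rose from 84.7 ± 7.57 to 114 ± 8.55 CPM (log2 0.48 ± 0.065, edgeR adjusted p = 0.000208), the 1 call among 6 tested partner cytokines and receptors, in a class where 4.15% of all genes passed as higher. Il25 was rare, with 23 of its 32 UMIs in upper follicle cells, the keratinocyte state with the lowest Tslp level. Il7, the other ligand that uses the Il7r chain, was highest in lymphatic endothelium, with 81.4 CPM and 42.3% of its UMIs. Il2rg, the partner of Il7r in that receptor, was at 329 CPM in type 2 innate lymphoid cells and 282 CPM in CD4 T cells.

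Genes of signal transduction downstream of the receptor were tested in 3 leukocyte classes. In lymphoid cells edgeR and DESeq2 called 0 of 8 tested signal genes and 0 of 4 partner genes, where edgeR called 1.25% of all genes, and 1 of these had an unadjusted edgeR p under 0.05: Socs1, a feedback inhibitor of Jak signalling, at 153 ± 34.2 and 261 ± 45.7 CPM (log2 0.77 ± 0.24, adjusted p = 0.141). In the type 2 dendritic cells of the first clustering they called 0 of 10 signal and 0 of 3 partner genes, where edgeR called 3.4% of all genes, with Socs3 at -0.51 ± 0.16 (edgeR adjusted p = 0.0996) the 1 with an unadjusted p under 0.05. In macrophages with monocytes 3 of 10 signal genes were higher (4.66% of all genes were), among them Jak2, a kinase of the receptor, and Socs1, with log2 fold changes of 1.12 ± 0.30 and 0.80 ± 0.26 (edgeR adjusted p = 0.0140 and 0.0495). DESeq2 called 1, and the part of the added monocytes in these values was not tested. Of 3 partner genes edgeR and DESeq2 called 0, and the 1 with an unadjusted p under 0.05 was Il2rg at 1.13 ± 0.45 (edgeR adjusted p = 0.118).

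Genes that dendritic cells are known to raise in response to TSLP were read in the type 2 dendritic cells of the first clustering. Of 9 tested, 0 were higher and 2 lower (0.894% of all genes were higher and 2.5% lower), with a median log2 fold change of -0.36 against 0.01 over all genes. Cd40, a costimulatory receptor, fell from 345 ± 44.1 to 223 ± 22.6 CPM (a log2 change of -0.71 ± 0.17, edgeR adjusted p = 0.0223), and Cd83, a maturation marker, by 0.60 ± 0.14 (adjusted p = 0.0224). DESeq2 called 1 lower. In this class the type 2 dendritic cells of the second clustering went from 59.4 to 44.8% of cells and the Cd209e-led cluster from 25.7 to 37.0%. The part of this mix in the values was not tested. In macrophages with monocytes 6 were tested, of which 1 was higher and 2 lower (4.66 and 4.7% of all genes). Cd80, another costimulatory gene, rose by 1.37 ± 0.42 (edgeR adjusted p = 0.0328), while Ccl24 and Cd83 fell by 0.64 ± 0.15 and 0.63 ± 0.15 (adjusted p = 0.0046 and 0.0060), and DESeq2 called these as lower and 0 as higher. Monocytes went from 3.98 to 27.1% of the cells of that class, and their part in its values was not tested.

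Across the 17 classes plotted for Tslp, the genes whose mean log2(CPM + 1) over the 6 libraries was most like that of Tslp were Sde2 (Pearson r = 0.86), Mettl7a1 (0.83), Alpk1 (0.82), Ly96 (0.80) and Myof (0.79), among 12984 genes. For Crlf2 they were Sri, Rftn1, Fxyd5, Batf and Rab43, at r of 0.93 to 0.94. For Il7r, with levels in few classes, they were Dennd1c, Atp8b4, Ikzf1, Rgs1 and Rac2, all at 0.993 or more. The classes come from the same 6 libraries and differ in depth, and these values are a description.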

How the data were processed

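The authors deposited UMI counts per gene and barcode for each library, whole numbers made with Cell Ranger 3.1.0 per the file headers, with STAR and mm10 named in the submitters' processing notes. Neither the annotation release nor the read depth is stated in the sources used here. All barcodes held at least 500 UMIs. Of 38206 barcodes, those with under 300 genes or a mitochondrial share over 15% were dropped, then the highest Scrublet scores at 0.8% per 1000 barcodes, because Scrublet's own threshold marked only 0.037 to 0.234%, a choice made with these data seen. Cells were clustered with scanpy 1.11.5 (2000 variable genes without the 3 members, 40 principal components, 20 neighbours, Leiden resolution 1.0, seed 1; 32 clusters), and epithelial cells and leukocytes were clustered again. A class name needed 3 markers at 2 times or more the level of the median cluster, detected in 25% of its cells or more.

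UMIs were summed per class and library where each library had at least 10 cells. Sums were tested with edgeR 4.0.16 (filterByExpr, TMM, quasi-likelihood) in R 4.3.3, with Benjamini-Hochberg adjustment over all genes tested and a threshold of 0.05. DESeq2 1.42.0 and the other settings in the closing section were alternatives. Errors are SD over 3 libraries, or SE for log2 fold changes. Shares were compared with two-sided exact permutation tests, also after thinning to 1000 UMIs, and limits from a count of 0 cover only counting error. The edgeR test was checked on simulated data in some classes only. These were keratinocytes, basal keratinocytes, lymphoid cells, type 2 dendritic cells of the first clustering, macrophages with monocytes, and all kept cells. The suprabasal test, the test between states and those of the other classes were not checked in this way. From each gene list and comparison the text names up to 3 members past the threshold with the smallest p, or the 2 with the smallest p where none passed, some of them left out for length or not reported here, and for each member the 5 genes most alike across classes. The members, lists and rules were chosen with earlier results of these data known. Coordinates are those of GENCODE M21, and upstream sequences are RefSeq's.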

Additional observations from a re-analysis of the deposited data

How the results depend on the processing

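Over 166 values that answer a comparison, 141 kept direction and side of the threshold; in the rest the cause was not tested unless the setting names it. The fall of Tslp in suprabasal keratinocytes held in every setting, at -0.82 to -0.73 with 1 library left out. Crlf2 in leukocytes was -0.44 with DESeq2, not called, and -0.56 to -0.38 with 1 library left out, lost in 4 of 6. Crlf2 in macrophages was not called with DESeq2 (-0.77), doublets kept (-0.70), stricter cells of at least 500 genes and at most 10% mitochondrial UMIs (-0.72) or clustering at resolution 0.6 (-0.44) or 1.5 (-0.41), and ran from -0.90 to -0.66 with 1 library left out. The setting without the highest Tslp cell in each library (basal -0.12) was added after seeing the data. At control class shares all kept cells gave -0.36 for Tslp, -0.032 for Crlf2 and 0.13 for Il7r. With 1 library left out, Tslp ran from -0.51 to 0.42 in basal cells, -0.82 to -0.40 in keratinocytes and -1.17 to 0.17 in pericytes, Il7r from -0.15 to 0.16 in lymphoid cells, -0.064 to 0.14 in type 2 dendritic cells of the first clustering, -0.17 to 0.35 in those of the second and -0.74 to 0.069 in type 2 innate lymphoid cells, and Crlf2 from -0.0044 to 0.12 in fibroblasts, -0.15 to 0.082 in lymphatic and -0.092 to 0.17 in vascular endothelium.

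Differences in shares (percentage points, EC-OVA minus EC-SAL) that turned sign when cells were thinned were, at 1000 UMIs, -0.168 for Tslp in fibroblasts, -1.53 for Crlf2 in vascular endothelium, 1.32 for Il7r in leukocytes, -2.82 for Il7r in type 2 dendritic cells of the first clustering and -0.472 in those of the second. At 2000 UMIs they were 0.737 for Tslp in macrophages, -0.531 for Tslp and -0.207 for Crlf2 in fibroblasts and -0.713 for Il7r in type 2 dendritic cells of the first clustering.

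Libraries of the same replicate number had correlations of 0.057, 0.046 and -0.055 over all kept cells. There, unlike numbers ran from -0.100 to 0.067. In keratinocytes the same-number values were 0.138, 0.152 and -0.001, and unlike numbers ran from -0.199 to 0.078. Whether the numbers pair the libraries was not settled by these values. With the number as a block, suprabasal Tslp was -0.77 with an edgeR adjusted p of 0.000918, and Tslp in macrophages (-0.998, adjusted p = 0.0320) and Il7r in macrophages with monocytes (1.23, adjusted p = 0.0288) passed. Tslp in macrophages also passed with doublets kept (-1.05) and at resolutions 0.6 (-1.61) and 1.5 (-1.78), and DESeq2 gave it no adjusted p. Il7r in macrophages with monocytes gave no value without EC-OVA-1, without EC-OVA-2 or with stricter cells.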
